A study of Danio rerio with 12 samples.

Results

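The data described here are the 6 arrays of crushed eyes (ONX) in a zebrafish study of optic nerve injury, 2 at each of 4, 12 and 21 days after the crush, out of 12 arrays in the series. They were selected by their titles, and the remaining 6 arrays, of sham-operated eyes (SHAM), entered no test. The labels give the fish as wild-type adult males, kept at 28 °C on a light cycle of 14 h, followed by 10 h of darkness. Under MS222 anaesthesia the left optic nerve was exposed and crushed with forceps. The right eye of the same fish served as the sham, being lifted from its orbit and put back with the nerve uncut. Each array holds RNA from a pool of 5 whole eyes, with retina, lens, vitreous and the anterior and posterior segments together. The fish of the 3 days were different animals, and each day holds pools of that day only, so that time after the crush cannot be told apart from anything else that differed between the collections. The labels give no scan date or other batch. In RNA from whole eyes, fewer cells of a type and less RNA per cell cannot be told apart either.

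The optic nerve is made of the axons of retinal ganglion cells. In zebrafish, unlike mammals, these axons regrow to the brain after a crush, and the neurons switch on transcription factors such as atf3 and sox11 and growth cone proteins such as gap43 while they do so. Injury of the fish eye also brings cell division, from Mueller glia, the radial glia of the retina, and from the progenitors at its margin, and it brings phagocytes and remodelling of the extracellular matrix. The question the study's design gives is how expression in the eye changes with time after the crush, and here it is followed within the crushed eyes.

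Levels are given as log2 of the deposited signal plus 16, differences are later day minus earlier day on the same scale, and ± is the standard error of limma's moderated fit with 2 pools a day. Genes are compared with themselves between arrays, never with one another. The p-values measure the spread between pools. Markers of whole eye were present on all 6 arrays: the rod transducin gnat1 read 13.84 or more, the cone transducin gnat2 12.73 or more, the lens crystallin crybb1 12.78 or more and the pigment epithelium isomerase rpe65a 12.04 or more.

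Of the 6 arrays, 2 stood apart, and the counts and gene list medians are given with and without them where they rest on them. On day 4 replicate 1, transcripts of egg cells were abundant. The egg coat gene zp2.6 read 14.46 there and at most 5.12 on the other 5 arrays, zp3.1 read 13.82 and at most 5.91, and the median level of 34 oocyte and germ cell genes was 11.95 against 5.03 to 5.26. For these genes the pool goes against its label of male fish, and the source of the transcripts was not tested. This array exceeded all the others by 2 or more log2 units at 537 probe sets, where no other array did so at more than 5, and it lay below all the others by that much at 4. Its Spearman correlation with the other arrays was 0.792 to 0.835, against 0.935 to 0.975 among those 5, as the correlation matrix shows.

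The second is the library labelled ONX day 12 replicate 1. gap43, a growth cone protein of regrowing axons, read 12.09 and 12.22 in crushed eyes at day 4, 7.95 and 12.32 at day 12, and 7.93 and 9.38 at day 21. The day 12 value of 7.95 is near, and slightly above, those of the sham eyes of day 4, at 7.65 and 7.73. The library labelled SHAM day 12 replicate 1, in contrast, read 12.68 and its partner 7.85. At day 21 the sham eyes read 10.15 and 9.18, both above the 7.93 of crushed-eye replicate 1. The transcription factors atf3 and sox11b, the tubulin tubb5 and the intermediate filament gene prph had the same order at day 12, as the plot of regrowth genes shows. The library labelled ONX day 12 replicate 1 therefore goes against its label for these genes, and whether samples were exchanged was not tested. The library labelled ONX day 21 replicate 1 also read below both sham eyes of its day for each of these genes. atf3, for example, read 7.88 there against 9.28 and 8.43. Whether day 21 samples were exchanged was not tested either, and the day 21 values below include that library.

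**Figure D1:**
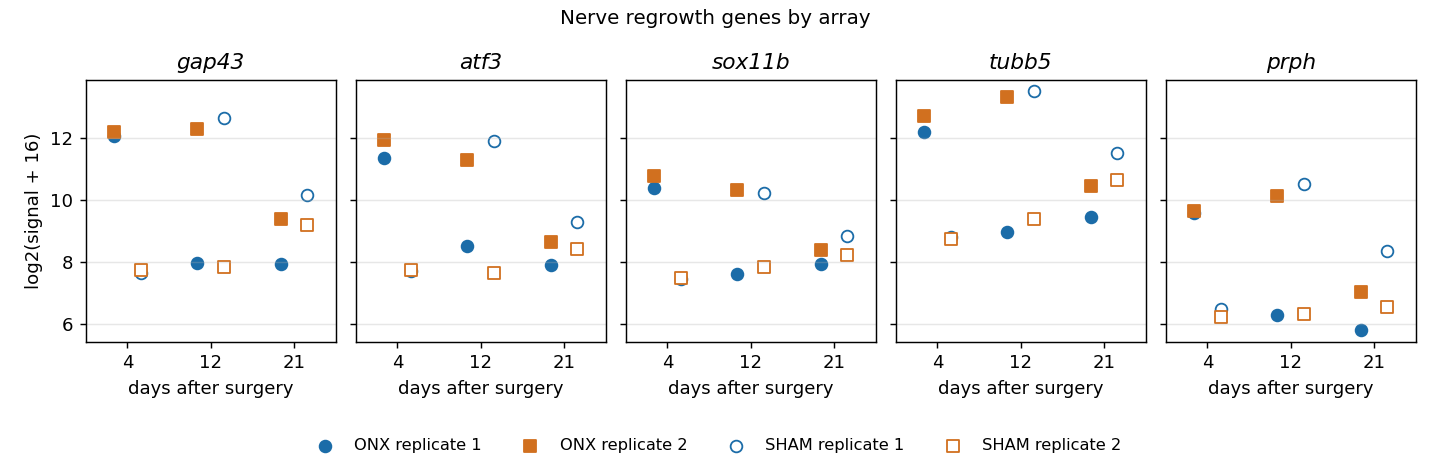
Level of 5 nerve regrowth genes, log2(signal + 16), against days after surgery, with filled symbols for crushed eyes and open symbols for sham eyes, circles for replicate 1 and squares for replicate 2. At day 12 the circle of the crushed eyes is low and that of the sham eyes high, so that gap43 read 7.95 and 12.68 in these libraries. At day 21 the circle of the crushed eyes is also below that of the sham eyes for each gene.

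**Figure D2:**
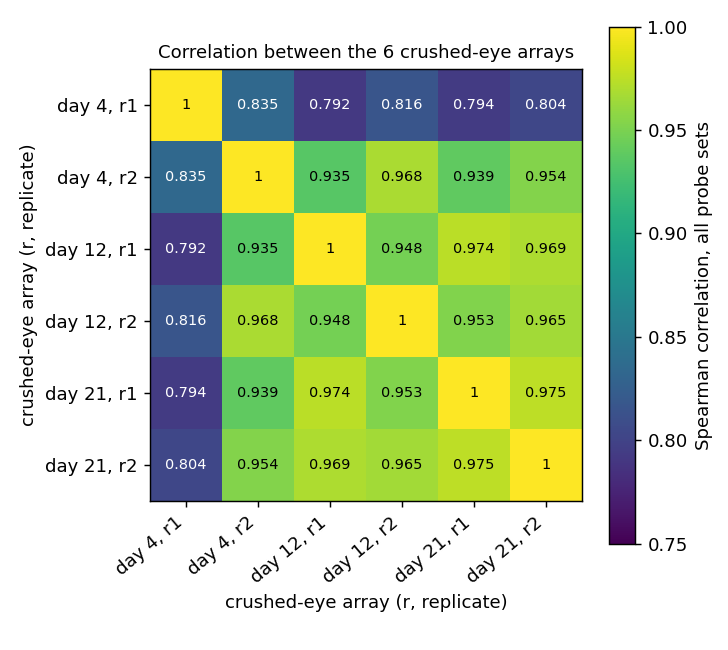
Spearman correlations between the 6 crushed-eye arrays over all 15502 probe sets. Day 4 replicate 1 correlates at 0.792 to 0.835 with the others, and the day 21 pair at 0.975.

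Across the 15502 probe sets tested, limma called none at an adjusted p of 0.05 in any comparison of days. The smallest adjusted p was 0.422 for day 12 against day 4, 1.0 for day 21 against day 12, 0.262 for day 21 against day 4 and 0.477 in the F-test over the 3 days. At an unadjusted p under 0.05 there were 1783 probe sets for day 12 against day 4, 240 for day 21 against day 12, 2351 for day 21 against day 4 and 1562 in the F-test. Without day 4 replicate 1 limma again called 0 in all of these, with 1176, 488, 1880 and 1087 probe sets at an unadjusted p under 0.05. Without the library labelled ONX day 12 replicate 1 the called counts were 0 and those at an unadjusted p under 0.05 were 612, 528, 2177 and 1325. With both left out, 5, 10, 365 and 33 probe sets passed, but the spread then comes from the day 21 pair alone, and this setting was chosen after the data were seen. Leaving out day 4 replicate 2, so that the pool with egg transcripts alone stood for day 4, gave 1886, 0, 2295 and 1035. Without day 21 replicate 1 the number at an unadjusted p under 0.05 for day 21 against day 4 was 573, and without day 21 replicate 2 it was 993. All gene values below are therefore differences that did not pass, and they are described by whether the arrays of the days overlap and by how large the gap is.

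The 2 pools of a day differed most at day 4. Their median absolute difference was 0.527 at day 4, 0.358 at day 12 and 0.226 at day 21, and they differed by more than 1 log2 unit at 21.1%, 10.7% and 5.31% of the probe sets. The library labelled ONX day 12 replicate 1 correlated at 0.974 and 0.969 with the day 21 arrays and at 0.948 with its own partner, and day 12 replicate 2 correlated best with day 4 replicate 2, at 0.968. Each day 12 array was thus closer to an array of another day than to its own partner. The comparisons below share arrays, so that they are not independent of one another.

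Day 21 and day 4 differed the most. Genes of dividing cells, of ribosome assembly and of nerve injury read lower at day 21, and genes of photoreceptors, interneurons, synapses and ganglion cell identity read higher. Both day 21 arrays lay above both day 4 arrays at 29.7% of the probe sets and below them at 20.9%. Over the 8793 genes, with 1 probe set each, these shares were 25.9% and 25.8%, and the median difference was -0.05. Arrays that differ only at random fail to overlap by day, in 1 direction or the other, with a probability of 0.333. A gap of 1 log2 unit or more separated the days at 1.37% of the probe sets higher at day 21 and 1.63% lower, or 1.32% and 2.19% of the genes. At an unadjusted p under 0.05, 9.59% of the probe sets were higher and 5.57% lower, or 8.6% and 7.37% of the genes. That balance depends on the scaling: 1487 were higher and 864 lower with the signals as deposited, 1783 and 643 after centring on array medians, and 423 and 2470 after scaling to the 9 hybridisation controls. The median difference of all probe sets was 0.05, 0.18 and -0.37 under these 3. With scaling to the 27 poly-A controls the counts were 562 and 593, at a median of -0.13.

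Cell division genes read lower at day 21. Of 49 measured, 45 lay lower at day 21 on both arrays and none higher, with a median difference of -2.21, or -1.48 without day 4 replicate 1. The proliferation marker mki67 read 9.99 and 8.85 at day 4, 6.45 and 7.99 at day 12, and 6.61 and 7.20 at day 21. The polymerase clamp pcna read 12.27 and 12.12, then 10.41 and 11.40, then 10.53 and 10.80. Both genes were highest in the day 4 pools, and day 12 replicate 2 lay between day 4 and day 21 while the library labelled day 12 replicate 1 was at or below day 21. Among single genes, the mitotic kinase plk1 read 12.05 and 8.86 at day 4, 4.41 and 7.68 at day 12, and 4.33 and 5.74 at day 21, a difference of -5.42 ± 1.36 (adjusted p = 0.262, limma). A signal of 0 gives a level of 4 once 16 is added, so that the size of this difference depends on the offset. The kinase cdk1 differed by -3.65 ± 0.76, with 10.47 and 9.13 at day 4 against 6.17 and 6.13 at day 21. Cyclin A2, ccna2, differed by -4.32 ± 1.17. These 3 were higher in the day 4 pool with egg transcripts than in its partner, and the part of egg cells in that was not tested. Without that pool the differences were -3.83, -2.98 and -2.60.

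Ribosome assembly and protein turnover genes also read lower, by smaller amounts. Of 43 ribosome biogenesis genes 36 lay lower at day 21 and none higher, with a median of -0.73 that was -0.36 without day 4 replicate 1. The nucleolar protein gene nop58 read 11.04 and 10.01 at day 4 and 9.35 and 9.42 at day 21. Of 41 proteasome subunit genes 29 lay lower and 1 higher, with a median of -0.34, or -0.51 without day 4 replicate 1 and -0.18 without day 4 replicate 2. The subunit gene psma2a read 10.58 and 10.56 against 9.66 and 9.76.

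Injury and regrowth genes read lower at day 21 as well. Of 20 injury transcription factors 9 lay lower and none higher, a median of -0.55 that was -1.23 without day 4 replicate 1 and -0.28 without day 4 replicate 2. atf3, a stress-induced factor that ganglion cells switch on after axon injury, read 11.37 and 11.94 at day 4, 8.51 and 11.29 at day 12, and 7.88 and 8.63 at day 21, a difference of -3.39 ± 0.84 (adjusted p = 0.262, limma). sox11b read 10.38 and 10.79, then 7.59 and 10.34, then 7.94 and 8.39. On both genes day 12 replicate 2 was near the day 4 pools, and the other day 12 library was near day 21. ascl1a, a proneural factor that fish Mueller glia switch on when they re-enter the cell cycle, read 7.68 and 9.76 at day 4, 6.47 and 6.93 at day 12, and 6.35 and 6.00 at day 21, and it was chosen after its values were seen. Here both day 12 libraries lay below both day 4 pools.

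Growth cone genes were mixed. Of 21 measured, 9 lay lower and 4 higher at day 21, with a median of -0.23, or -0.38 without day 4 replicate 1. gap43 differed by -3.50 ± 1.29 (adjusted p = 0.292, limma), and marcksb, a membrane-bound actin regulator, read 12.53 and 12.07 at day 4 and 9.78 and 10.57 at day 21. stmn4, a microtubule regulator, read 11.21 and 11.59 against 9.76 and 10.46. All 3 had a day 12 pair with one library near each of the other days. The neuronal intermediate filaments split. prph, peripherin, read 9.57 and 9.64 at day 4 and 5.80 and 7.02 at day 21, whereas inaa, an internexin, read 11.12 and 11.05 at day 4, 12.25 and 11.99 at day 12, and 12.52 and 12.47 at day 21. For inaa the day 12 libraries agreed, and both lay above both day 4 pools, a day 21 difference of 1.41 ± 0.22. Its paralog inab read 11.05 and 11.30, then 9.86 and 12.13, then 10.01 and 10.37, which follows prph and not inaa. ephb2b, an Eph receptor gene, read 10.83 and 8.09 at day 4 and 4.67 and 5.41 at day 21, -4.42 ± 1.08, and -3.05 without day 4 replicate 1. Its day 21 levels were also near the value of 4, so that the size depends on the offset.

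Phagocyte and matrix genes leaned lower, but the 2 pools of each day spanned wide ranges. Of 27 microglia and macrophage genes 13 lay lower and 1 higher, with a median of -0.90, or -1.56 without day 4 replicate 1 and -0.34 without day 4 replicate 2. The complement gene c1qc read 9.84 and 10.86 at day 4, 8.95 and 10.29 at day 12, and 8.96 and 9.63 at day 21. The cathepsin gene ctss2.1 read 13.75 and 10.80, then 8.36 and 9.17, then 8.03 and 8.69. It was higher in the day 4 pool with egg transcripts than in its partner, whereas c1qc was lower there. Its difference between days 12 and 4 was -3.51, or -2.03 without that pool, and the part of egg cells in it was not tested. Of 33 matrix genes 14 lay lower and 3 higher, with a median of -0.68, or -1.22 without day 4 replicate 1 and -0.15 without day 4 replicate 2. mmp9, a metalloprotease of wound repair, read 10.95 and 12.58 at day 4, 7.90 and 10.71 at day 12, and 8.16 and 8.85 at day 21, while the collagen gene col1a2 read 12.53 and 13.61, then 10.01 and 13.87, then 11.12 and 12.56. In mmp9 the day 21 arrays lay below both day 4 arrays, and in col1a2 the days overlapped. The pools of a day also differed in muscle genes. Their median deviation from the mean of the 6 arrays was -0.79 and 0.48 at day 4, -0.42 and 1.26 at day 12, and -0.60 and 0.49 at day 21, which is the same high and low pool within each day as for the matrix genes. The part that muscle or other tissue left on the eyes has in the matrix values was not tested.

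**Figure D3:**
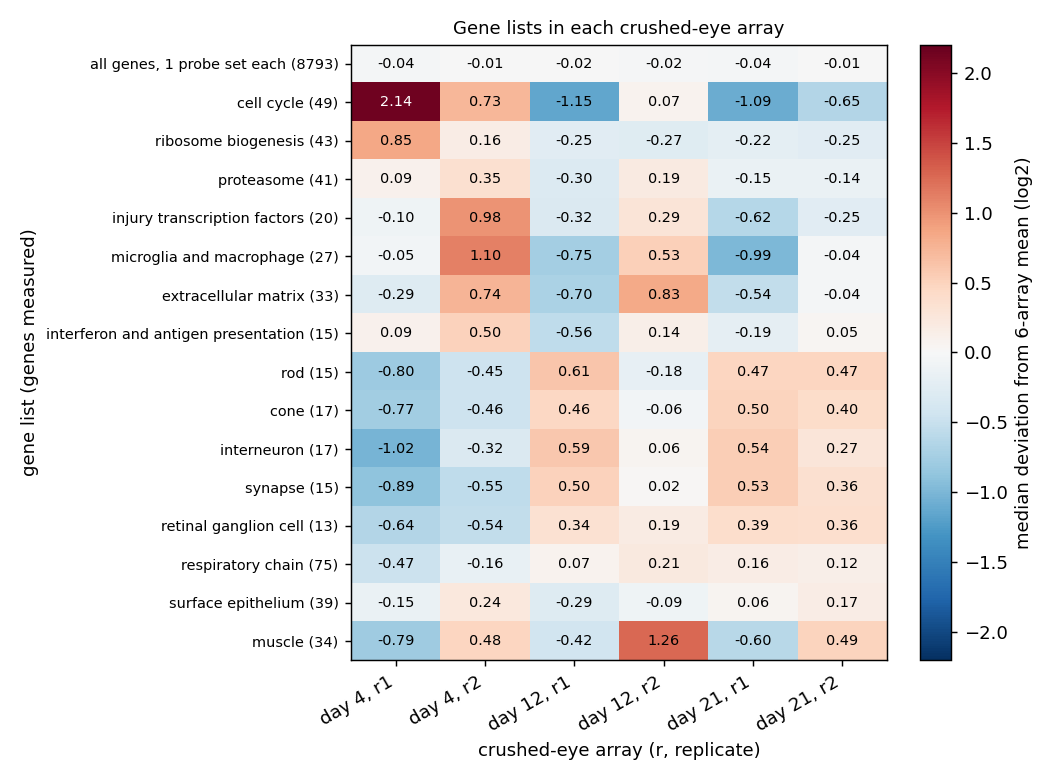
Median deviation of each gene list from the mean of the 6 arrays (log2), by array, with the number of genes measured. Cell cycle genes were at 2.14 and 0.73 at day 4 and -1.09 and -0.65 at day 21, and rod genes at -0.80 and -0.45 against 0.47 and 0.47.

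Genes of the visual pathway read higher at day 21. In the rod list 14 of 15 genes lay higher and none lower, with a median of 1.15. In the cone list it was 16 of 17 and none, with a median of 1.05. Their medians without day 4 replicate 1 were 1.00 and 0.86, and after scaling to the hybridisation controls 0.73 and 0.63. gnat1 read 13.87 and 13.84 at day 4, 15.08 and 14.31 at day 12, and 14.95 and 15.00 at day 21. The rod phosphodiesterase pde6a read 11.11 and 11.53, then 13.01 and 12.06, then 12.99 and 12.74. In both genes the 2 day 4 pools were the lowest of the 6 arrays and day 12 replicate 2 lay between them and the rest. gnat2 differed by 1.39 ± 0.28, at 12.73 and 12.77 against 14.23 and 14.05, the ultraviolet opsin opn1sw1 by 1.15 ± 0.35 and the red opsin opn1lw1 by 0.77 ± 0.30.

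Interneuron and synapse genes were alike. Of 17 interneuron genes 16 lay higher and none lower, with a median of 1.03, or 0.65 without day 4 replicate 1, and all 15 synapse genes lay higher, with a median of 1.2, or 1.03 without it. After scaling to the hybridisation controls these medians were 0.62 and 0.78. calb2b, a calretinin of amacrine and ganglion cells, read 8.23 and 9.20 at day 4, 11.16 and 10.35 at day 12, and 11.02 and 11.01 at day 21, a difference of 2.3 ± 0.40 (adjusted p = 0.262, limma). The GABA-synthesis gene gad2 read 9.22 and 9.72, then 10.67 and 9.78, then 11.05 and 10.56. Among synaptic vesicle genes, sypb read 10.79 and 10.93, then 12.11 and 11.90, then 12.32 and 12.01, and sv2bb 9.84 and 10.39, then 11.60 and 11.26, then 11.49 and 11.44. In sypb, sv2bb and calb2b both day 12 libraries lay above both day 4 pools.

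Retinal ganglion cell identity genes also read higher at day 21. Of 13 such genes 10 lay higher and 1 lower, with a median of 1.00, or 0.88 without day 4 replicate 1 and 0.58 after scaling to the hybridisation controls. pou4f2, a POU-domain factor of ganglion cells, read 5.77 and 5.83 at day 4, 7.45 and 7.53 at day 12, and 7.49 and 7.92 at day 21, a difference of 1.90 ± 0.34 at day 21. The 4 later arrays lay close together and above both arrays of day 4. isl1a, a LIM-homeodomain factor, read 9.20 and 9.47, then 10.46 and 10.24, then 10.52 and 10.20. isl2a read 5.87 and 5.21, then 7.39 and 6.92, then 6.76 and 6.91. irx4b, an Iroquois factor gene outside the list, read 5.32 and 4.30, then 7.26 and 6.21, then 7.30 and 7.63, 2.66 ± 0.53. Its level of 4.30 is near the value of 4 that a signal of 0 gives, so that the size depends on the offset. For all 4 both day 12 libraries lay above both day 4 pools, the library labelled day 12 replicate 1 included.

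Energy genes read higher by small amounts: 65 of 75 respiratory chain genes lay higher and 1 lower, with a median of 0.46 that was 0.30 without day 4 replicate 1 and 0.04 after scaling to the hybridisation controls. The first 3 of that list, the ATP synthase genes atp5f1b, atp5f1c and atp5f1d, differed by 0.22, 0.10 and 0.51. Other lists depended on day 4 replicate 1. Mueller glia genes had a median of 0.25, and of -0.31 without day 4 replicate 1, growth factor genes 0.50 and 0.00, and muscle genes 0.08 and -0.65, so that no direction is given for them. In the Mueller glia list rlbp1a read 10.60 and 11.25 at day 4 and 12.05 and 11.91 at day 21, and gfap 8.15 and 9.49 against 8.96 and 9.18. Which cells of the whole eye the rlbp1a transcripts came from was not tested, so that it is not read as a Mueller glia marker.

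**Figure D4:**
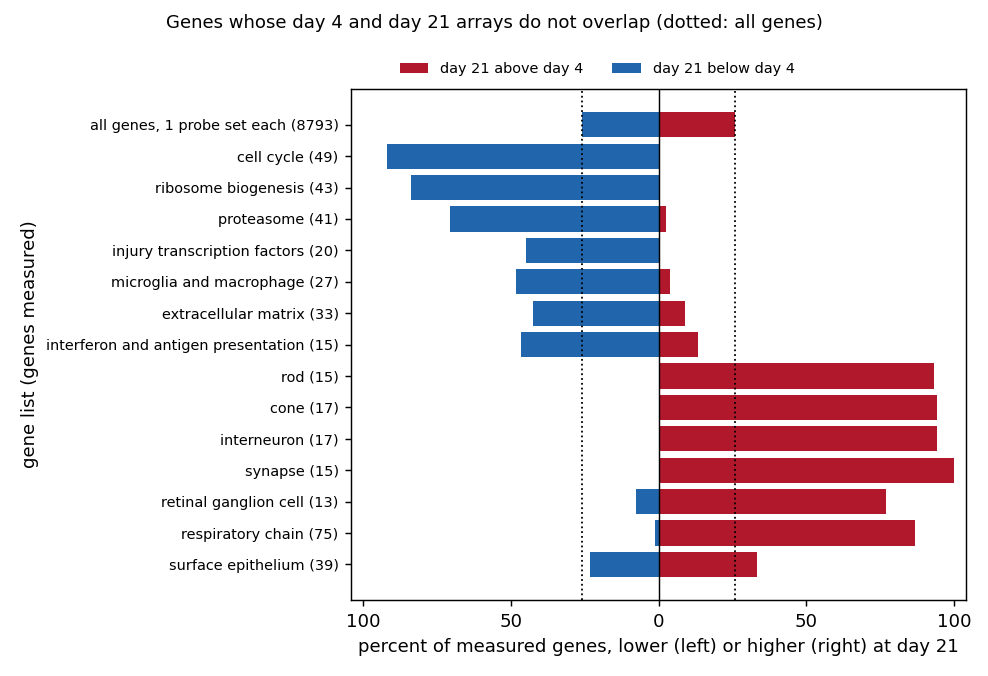
Percent of the measured genes of each list whose day 21 arrays both lay below (left) or both above (right) both day 4 arrays, with the number of genes measured and dotted lines at the values over all 8793 genes. In the synapse list 15 of 15 were higher and in the cell cycle list 45 of 49 lower, beside 25.9% and 25.8% over all genes.

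Other genes with the widest gaps between day 4 and day 21 were outside these lists. On the lower side jac4 had the widest gap of the genes named. It read 9.81 and 11.39 at day 4, 5.44 and 6.09 at day 12, and 4.73 and 5.04 at day 21, a difference of -5.72 ± 0.58 (limma, adjusted p = 0.262). The day 21 levels are near the value of 4 that a signal of 0 gives, so that the size depends on the offset. Without day 4 replicate 1 it was -6.51, and both day 12 libraries agreed. On the higher side cyp8b1.3, which encodes a sterol hydroxylase family member, read 5.53 and 5.57, then 5.69 and 6.77, then 8.03 and 8.58, and fabp1a, a fatty acid binding protein, read 8.91 and 8.76, then 10.25 and 10.60, then 11.31 and 10.97. fabp1a read higher at each later day with no overlap, by 2.3 ± 0.25 between day 4 and day 21. mbpa, a myelin basic protein, read 10.93 and 10.80, then 12.88 and 11.34, then 12.60 and 13.10, while its paralog mbpb read 9.17 and 9.48 at day 4 and 8.65 and 8.70 at day 21. wls and cops4 were also among the 8 widest gaps, with differences of 3.06 and 2.44. Their other probe sets (2 each) had the opposite sign, so that wls and cops4 are not described as higher.

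**Figure D5:**
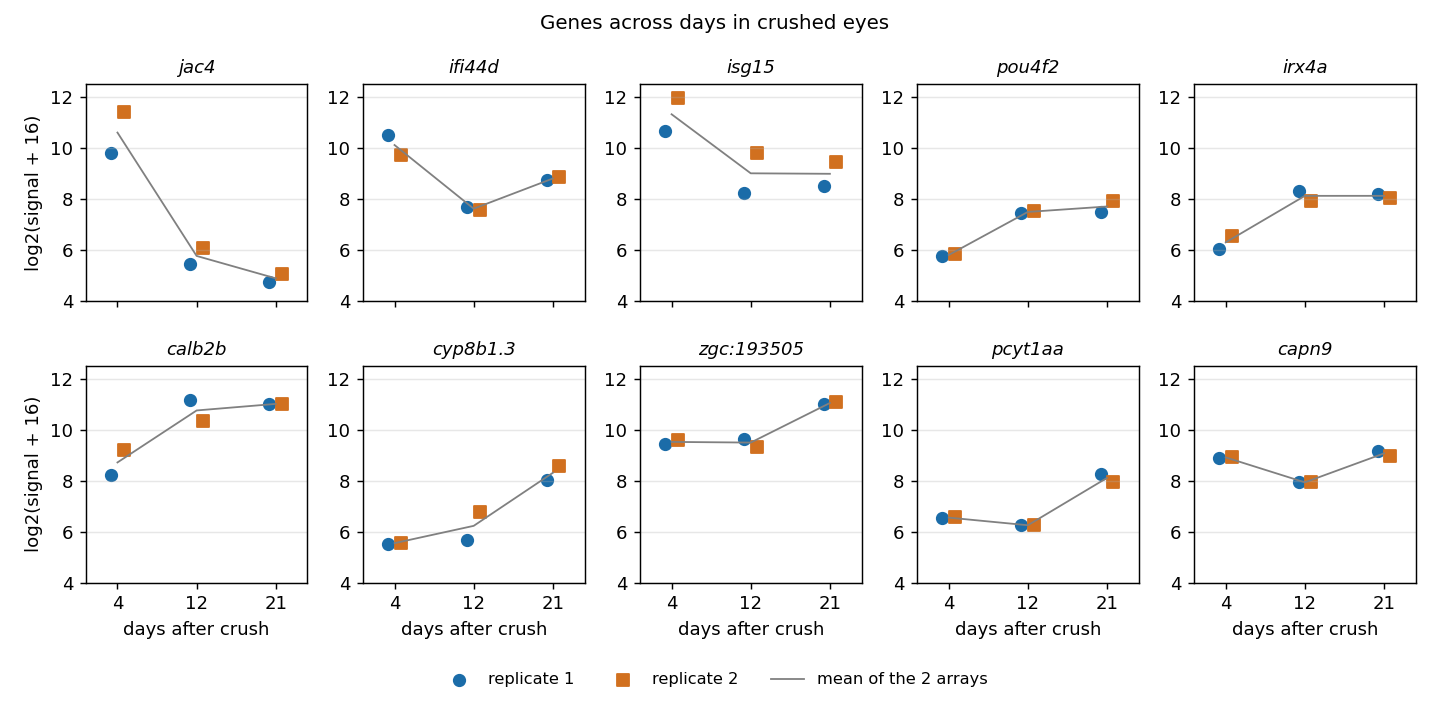
Level of 10 genes, log2(signal + 16), at 4, 12 and 21 days after the crush, with circles for replicate 1, squares for replicate 2 and a line through the mean of the 2 arrays. jac4 reads 9.81 and 11.39 at day 4 and 4.73 and 5.04 at day 21, the gap in pou4f2 and irx4a lies between days 4 and 12, and that in zgc:193505 and pcyt1aa between days 12 and 21.

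By day 12, most of the difference between days 4 and 21 was present in one library and a smaller share of it in the other. At the 212 probe sets where day 21 was above day 4 by a gap of 1 or more, the library labelled ONX day 12 replicate 1 lay at a median of 93.5% of the way from the day 4 mean to the day 21 mean, and day 12 replicate 2 at 57.4%. At the 252 probe sets lower by that gap the values were 102% and 55.7%. These probe sets were picked on days 4 and 21, and the day 12 values are a description. With day 4 replicate 2 as the only day 4 array, the values were 91.8% and 57.4% at 361 probe sets higher, and 105% and 42.4% at 589 lower.

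Day 12 arrays both lay above both day 4 arrays at 23.1% of the probe sets and below them at 17.5%, and over genes at 20.9% and 21.2%, with a median of -0.04. A gap of 1 or more was found at 0.323% and 0.593% of the probe sets (0.33% and 0.716% of the genes), and an unadjusted p under 0.05 at 6.92% and 4.59% (6.37% and 5.99% of the genes). The split at an unadjusted p under 0.05 was 1072 higher and 711 lower as deposited, 1433 and 496 after centring on medians, 265 and 1808 with the hybridisation controls, and 301 and 367 with the poly-A controls. The median difference of all probe sets was 0.04, 0.18, -0.31 and -0.15 in that order. The lists are given as for day 21, a comparison that uses the same day 4 arrays. Of 49 cell cycle genes 40 lay lower, with a median of -2.07, which was -1.38 without day 4 replicate 1, -1.45 without the library labelled ONX day 12 replicate 1 and -0.78 without both. Of the 15 synapse genes all lay higher, with medians of 1.04, 0.81, 0.84 and 0.58 in that order, and of 13 ganglion cell identity genes 9 lay higher and none lower, with 0.95, 0.80, 0.82 and 0.71. Of 15 rod genes 12 lay higher and none lower, with 0.84, 0.62, 0.43 and 0.31, and 1.31 without day 12 replicate 2. Of 43 ribosome biogenesis genes 34 lay lower, with -0.79, -0.42, -0.76 and -0.42.

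The next genes had the widest gaps between days 4 and 12. That rule takes only genes where both day 12 libraries lie on one side of both day 4 pools, so that their agreement follows from it. On the higher side were pou4f2 and irx4a, an Iroquois factor that read 6.04 and 6.55 at day 4, 8.31 and 7.94 at day 12, and 8.19 and 8.05 at day 21. calb2a, the other calretinin, read 8.89 and 9.26, then 10.71 and 10.58, then 10.40 and 10.67. ckmt2a, a mitochondrial creatine kinase, read 11.98 and 11.93, then 13.47 and 13.33, then 13.72 and 13.51. oaz2b, an antizyme that limits polyamine synthesis, read 8.37 and 9.19, then 10.99 and 10.63, then 11.05 and 10.81. In all of these the day 12 and day 21 arrays lay together, above the day 4 pools, and the differences at day 12 were 1.69 ± 0.34, 1.82 ± 0.35, 1.57 ± 0.24, 1.44 ± 0.23 and 2.03 ± 0.33 in the order named. None passed (adjusted p = 0.422 for each, limma). Without day 4 replicate 1 they were 1.66, 1.57, 1.38, 1.47 and 1.62. fabp1a, described above, wu:fc28h03 and the muscle Z-disc gene myoz1b completed the 8 widest gaps on this side. Their differences were 1.58, 1.81 and 2.07, or 1.66, 1.86 and 1.4 without day 4 replicate 1. wu:fc28h03 read 4.45 and 4.36 at day 4, near the value of 4 that a signal of 0 gives, so that its size depends on the offset.

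Genes named for their induction by interferon in mammals made up 3 of the 8 widest gaps lower at day 12. ifi44d read 10.52 and 9.71 at day 4, 7.67 and 7.57 at day 12, and 8.75 and 8.85 at day 21, a difference of -2.50 ± 0.33 at day 12. It was lowest at day 12 and higher again at day 21, by 1.18 ± 0.33 with no overlap. ifi27.1 read 11.66 and 12.05, then 8.52 and 9.95, then 9.75 and 9.70, and ifi44a6, a weak probe set with signals of 1.81 to 165, read 6.42 and 7.50, then 4.15 and 4.44, then 5.80 and 4.36. In the list of 15 interferon and antigen presentation genes, 6 lay lower at day 12 and none higher, beside 21.2% and 20.9% of all genes. The median was -0.46, or -0.64 without day 4 replicate 1 and -0.05 without the library labelled ONX day 12 replicate 1. isg15, a ubiquitin-like antiviral protein, read 10.68 and 11.96, then 8.22 and 9.79, then 8.53 and 9.45, and the antiviral GTPase mxa 7.06 and 8.36, then 5.66 and 6.46, then 6.23 and 5.77. irf7, an interferon regulatory factor chosen after its values were seen, read 9.85 and 10.28, then 7.63 and 8.30, then 8.12 and 8.78. In these 3 both day 12 libraries were below both day 4 pools, while the antigen presentation gene b2m read 12.61 and 13.10, then 12.41 and 13.03, then 12.87 and 12.95, with the days overlapping. The remaining wide gaps were those of jac4, ntrnl2 (8.82 and 10.63 against 6.21 and 6.96), the mitotic gene incenp (7.75 and 6.56 against 4.80 and 4.40), dlec1 and ctss2.1.

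Between day 12 and day 21 the arrays differed least with all 6 arrays used. By the count of genes that do not overlap, that order rests in part on the library labelled ONX day 12 replicate 1. Without it, 3382 of the 8793 genes lay higher and 3378 lower at day 21 than at day 12. For day 12 against day 4 these counts were then 2641 and 2911, which is fewer. The 0.333 of 2 arrays against 2 does not apply to them, since random arrays fail to overlap more often with 1 against 2. Such counts set 1 day 12 array against a pair, and they depend on the spread of that pair and on its distance from the array. Day 12 replicate 2 correlated at 0.816 and 0.968 with the day 4 arrays, and at 0.953 and 0.965 with the day 21 arrays. What sets the order of the counts was not tested. The median absolute difference of the pair was 0.527 at day 4 and 0.226 at day 21. The order by unadjusted p under 0.05, given above, did not change without the library labelled ONX day 12 replicate 1. With day 4 replicate 1 left out as well, that order was the other way round. The shares that follow are those with all 6 arrays. Both day 21 arrays lay above both day 12 arrays at 16.3% of the probe sets and below them at 14%, with 14.9% and 14.9% over genes and a median of -0.01. Both directions together are below the 0.333 of arrays that differ only at random, so that these shares show no difference between the days. They include the library labelled ONX day 12 replicate 1, which goes against its label for the regrowth genes, and no such statement is made without it. A gap of 1 or more was found at 0.142% and 0.135% of the probe sets (0.148% and 0.102% of the genes), and an unadjusted p under 0.05 at 1.06% and 0.484% (0.819% and 0.444% of the genes). The split of the latter was 165 higher and 75 lower, and 112 and 90 with the hybridisation controls. Both directions together are fewer than a threshold of 0.05 would give at random. The fit shares its spread over the 3 days, so that the wide day 4 pair enters it although no day 4 array is compared here. With only the 4 arrays of days 12 and 21 fitted, the number was 491 instead of 240. The shortfall is therefore not read as showing that the days are alike. zgc:193505 read 9.44 and 9.60 at day 4, 9.65 and 9.34 at day 12, and 11.01 and 11.09 at day 21, a difference of 1.55 ± 0.23 between days 12 and 21 (adjusted p = 1.0, limma). The first 4 arrays lay close together and both day 21 arrays were above them. pcyt1aa, an enzyme gene of phosphatidylcholine synthesis, read 6.53 and 6.57, then 6.25 and 6.26, then 8.26 and 7.96. The paralogs cyp8b1.3 and cyp8b1.1 were both higher at day 21, the second at 6.27 and 6.24, then 6.37 and 6.56, then 7.68 and 7.95. Probes for such close paralogs can pick up the same transcripts, so that the 2 may not be separate measurements. The keratin gene krt99 read 5.83 and 6.40, then 5.99 and 6.02, then 7.24 and 7.36. zgc:152968, rln3a and neurog3 also lay higher, and all but zgc:193505 in this group of 8 had weak signals, at most 367. At day 12 zgc:152968, rln3a and neurog3 read 4.21 to 4.74. That is near the value of 4 that a signal of 0 gives, so that the size depends on the offset. In day 4 replicate 1 zgc:152968 and rln3a read 6.92 and 6.24, above both day 21 arrays.

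On the lower side, the 8 widest gaps between days 12 and 21 were ptx4, LOC571470, the kinetochore gene cenpk, the forkhead factor gene foxa1, the cytokinesis gene anln, a probe set of pgk1, antxr1c and enkur. All 8 were weak at day 21, with levels of 4.36 to 4.98, which is near the value of 4 that a signal of 0 gives after adding 16. Their differences lay between -1.28 and -1.66. The other probe set of antxr1c had the opposite sign, and the brighter probe set of pgk1, a glycolytic kinase, read 12.23 and 12.35 at day 12 and 12.13 and 12.15 at day 21. cenpk and anln read higher in the day 4 pools than at day 12, at 8.36 and 6.36 against 5.67 and 5.88 for cenpk.

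Surface epithelium genes read lower at day 12 than on the days before and after in part of the list. Of 39 such genes, 22 lay higher at day 21 than at day 12 and 1 lower, beside 14.9% and 14.9% of all genes. At an unadjusted p under 0.05, 5 of the 39 were higher, beside 0.819% of all genes. The median was 0.36, or 0.26 without the library labelled ONX day 12 replicate 1. Between days 4 and 12, 14 of the 39 lay lower and 3 higher, beside 21.2% and 20.9% of all genes. The median was -0.36, or -0.54 without day 4 replicate 1 and -0.18 without the library labelled ONX day 12 replicate 1. Over all alternatives it lay between -0.72 and -0.01. The calpain gene capn9 read 8.88 and 8.95 at day 4, 7.93 and 7.93 at day 12, and 9.18 and 8.96 at day 21, so that both day 12 libraries were below all 4 others. krt4 and krt5, keratins of surface epithelium, read 12.26 to 12.80 and 14.02 to 14.46 over the 6 arrays, krt4 lowest at day 12 and krt5 lowest at day 4. Chosen after their values were seen, krt15 read 13.12 and 13.48, then 12.64 and 12.65, then 13.11 and 13.30, and anxa1c, an annexin gene, 10.49 and 10.63, then 8.61 and 9.68, then 9.82 and 10.39. How much cornea and skin was left on each pool of eyes was not tested.

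Other lists did not separate clearly between days 12 and 21. Cell cycle genes had a median of -0.26, with 6 of 49 lower and none higher, and of -0.85 without the library labelled ONX day 12 replicate 1. Matrix genes had -0.29 and -1.07 in the same order, microglia genes -0.41 and -1.01, muscle genes -0.45 and -1.38 and rod genes 0.31 and 0.68. With day 12 replicate 2 left out instead, the medians of these lists were 0.27, 0.53, 0.18, 0.34 and -0.07 in the order named, so that each took the other sign. Of 72 cytosolic ribosomal protein genes 20 lay lower and none higher, beside 14.9% and 14.9% of all genes. The median was -0.15, or -0.24 without the library labelled ONX day 12 replicate 1, and between -0.26 and -0.04 over all alternatives.

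The clock list holds genes whose levels follow the time of day, which the labels do not give. Of 29 genes 21 lay higher at day 21 than at day 4 and 3 lower, beside 25.9% and 25.8% of all genes. The median was 0.51, or 0.44 without day 4 replicate 1 and 0.09 after scaling to the hybridisation controls. The light-induced repressor per2 read 10.42 and 9.93, then 11.21 and 10.57, then 10.62 and 10.75, and cry1a, a cryptochrome of the same loop, 8.60 and 8.95, then 9.88 and 9.04, then 9.68 and 9.73. per3 read 5.14 and 6.02 at day 4 and 6.37 and 6.38 at day 21. Chosen after their values were seen, clocka read 5.87 and 5.80, then 6.39 and 6.07, then 7.73 and 7.35, and rorcb 7.82 and 7.99, then 7.04 and 7.98, then 9.01 and 9.33. Both had day 21 arrays above all 4 earlier ones, which does not hold for most of the list. Between days 12 and 21, 7 of the 29 genes lay higher and 3 lower, beside 14.9% and 14.9% of all genes. The median of the list was then 0.11, and between -0.17 and 0.46 over all alternatives.

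In the F-test over the 3 days the 12 smallest p-values were those of jac4, fabp1a, nsfa, ckmt2a, pygl, zgc:193505, ifi44d, gng13b, oaz2b, calb2a, acsl6 and inaa, and none passed. The G-protein subunit gene gng13b read 9.16 and 9.57 at day 4 and between 10.78 and 10.91 on the 4 later arrays. The fatty acid ligase gene acsl6 read 9.21 and 9.27, then 10.45 to 10.81. A probe set of nsfa, the ATPase that takes apart SNARE complexes, read 9.77 and 10.06, then 11.36 and 11.13, then 12.18 and 11.72, with no overlap between any of the days. pygl, a glycogen phosphorylase, read lower with time, at 10.08 and 9.78, then 8.18 and 8.45, then 8.08 and 7.95. In each of these genes except zgc:193505 the day 4 pools lay apart from the 4 later arrays.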

How the data were processed

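RNA from pools of 5 whole eyes was hybridised to Affymetrix zebrafish arrays, 1 array a pool. The deposited values are signal intensities made by the authors with MAS5, per the submitters' processing notes, whose version is not given in the sources used here. They were linear, positive and scaled alike, with a trimmed mean (2% at each end) of 500.1 on each of the 6 ONX arrays and medians of 238 and 214 at day 4, 202 and 204 at day 12, and 201 and 209 at day 21. After 16 was added to each signal, log2 was taken. Of 15617 probe sets 115 are controls. The other 15502 were tested without a filter: 10795 carry 1 gene symbol in the platform annotation, 135 several and 4572 none, and 10711 of those with 1 were found in the RefSeq gene table.

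Limma (3.58.1, in R 4.3.3) fitted a mean for each day. Its moderation followed the trend of the variance with the mean level, on 3 residual and 3.57 prior degrees of freedom. P-values were adjusted by Benjamini-Hochberg within each comparison, with a threshold of 0.05. The fit was tested on simulated data. The number of arrays limits the precision, and a permutation of 2 arrays against 2 could not go below 0.333. SHAM arrays were used only to check labels. The 35 gene lists, the rules and the members were chosen with earlier results of these data known. Lists use 1 probe set a gene, that with the highest mean level, and 9 genes are in more than 1 list. Matching of list symbols through older synonyms was restricted after values had been seen.

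Genes were named by a rule: in each comparison and direction, 8 genes with the widest gap between the arrays of the 2 days, oocyte and testis lists left out, the 12 smallest p of the F-test, the first 3 measured genes of each list, and gap43. Lists not described in the results are in the closing section. Alternatives were the offset, filters on low signal, quantile, median, hybridisation or poly-A scaling, no trend, robust moderation, array weights, a replicate block, each array left out, the 4 arrays of a pair of days, and other thresholds. Genome positions and sequences were not used here.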

Additional observations from a re-analysis of the deposited data

How the results depend on the processing

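The counts of called probe sets were 0 in each comparison of days and in the F-test as fitted, and also under each planned change of offset, filter, scaling, moderation, array weights or arrays fitted, with the exceptions given here. With 1 array left out the counts ranged from 0 to 1886 for day 12 against day 4, from 0 to 0 for day 21 against day 12, from 0 to 2295 for day 21 against day 4 and from 0 to 1035 in the F-test, the high ends all without ONX day 4 replicate 2. Without both ONX day 4 replicate 1 and the library labelled ONX day 12 replicate 1, chosen after seeing the data and with 1 residual degree of freedom, they were 5, 10, 365 and 33. At an unadjusted p under 0.01 and a 2-fold difference the comparisons of days gave 264, 32 and 525. The gap43 difference between days 12 and 4 was -2.02, and between -4.2 and 0.17 with 1 array left out, or 0.10 without both arrays. Between days 21 and 12 it was -1.48, and between -3.67 and 0.70 with 1 array left out. Of the medians of gene lists under all alternatives, 1962 stayed within the spread between replicates and 240 did not. With the replicate block limma called 0 in each comparison, at a smallest adjusted p of 0.434, 1.0 and 0.206, and 1761, 254 and 2379 probe sets had an unadjusted p under 0.05. The numbers do not pair animals, since the days hold different fish. Differences between replicates 1 and 2 correlated at 0.0576 for days 4 and 12, 0.0145 for days 4 and 21, and 0.22 for days 12 and 21. The lower 2 values involve the pool with egg transcripts. Muscle, matrix and microglia medians were higher in replicate 2 on each day, whereas the cell cycle median at day 4 was higher in replicate 1. Whether same-numbered arrays shared a batch was not tested. Leaving out dim probe sets, so that the upper 60% or 40% by mean signal remained, also gave 0 calls.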

Other observations

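Several gene lists outside the results above had the following medians for day 21 against day 4, where the median over all genes was -0.05 and 25.9% and 25.8% of them did not overlap, higher and lower. Lens genes had 0.78, or 0.52 without day 4 replicate 1, with 7 of 10 higher and none lower. The crystallin gene cryaa read 12.45 and 12.45 at day 4, 14.00 and 12.77 at day 12, and 14.08 and 13.60 at day 21. Glycolysis genes had 0.61 and 0.22, with 12 of 21 higher and 1 lower, retinal progenitor and eye field genes 0.38 and 0.10, with 16 of 33 higher and 2 lower, and immediate early genes 0.68 and 0.13, with 10 of 20 higher and 1 lower. After scaling to the hybridisation controls the eye field median was -0.04, and those of the lens and glycolysis lists were 0.37 and 0.20. The retinal homeobox gene rx1 read 9.25 and 9.76, then 10.54 and 10.03, then 10.68 and 10.65. Myelin genes had 0.63 and 0.28, with 4 of 8 higher and 1 lower, and pigment epithelium and pigment cell genes 0.54 and 0.09, with 4 of 8 higher and 1 lower.

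Chaperonin genes, which fold actin and tubulin, had -0.39 and -0.64, with 6 of 8 lower and none higher, and cct2 read 10.97 and 11.70, then 11.11 and 11.19, then 10.74 and 10.78. Splicing genes had -0.25 and -0.21, with 30 of 63 lower and 11 higher. Endoplasmic reticulum and oxidative stress genes had -0.29 and -0.33, with 16 of 43 lower and 8 higher. Interferon and antigen presentation genes had -0.33 and -0.57, with 7 of 15 lower and 2 higher. Red blood cell genes had 0.35 and 0.30, with 6 of 14 higher and 2 lower, and the globin gene hbaa1 read 13.12 and 13.29, then 14.34 and 13.76, then 13.75 and 13.50. After scaling to the hybridisation controls the red blood cell median was -0.07 and the cholesterol synthesis median -0.22. The intermediate filament list of 3 genes had -0.99. Cytosolic ribosomal protein genes had -0.12 and -0.43, cholesterol synthesis genes 0.19 and 0.23, lipid carriers and annexins -0.04 and -0.34, and testis genes -0.09 and 0.10. Oocyte and germ cell genes had -3.19, and 0.08 without day 4 replicate 1. The medians of the intermediate filament, ribosomal protein, lipid carrier and testis lists each took the other sign under at least 1 alternative.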
